A study of Homo sapiens with 12 samples.

Results

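HK2 cells, an immortalised line of human proximal tubule epithelium, were transfected with a small interfering RNA (siRNA) against FGF9 and kept at 5.5 mM glucose (si-FGF9), and their RNA was compared with that of cells at the same glucose (NG). The 3 si-FGF9 and 3 NG libraries, 6 of the 12 in the series, were chosen by their labels. Every group was grown in DMEM/F-12 with serum and antibiotics, and the labels give no culture time. A passage of the study also names mannitol for NG, which its methods and the labels do not. The NG cells received a control vector, and no non-targeting siRNA is described, so that effects of the siRNA transfection itself and of FGF9 cannot be told apart. The 3 libraries of cells at 50 mM glucose (HG) are given beside some results as a second group without the siRNA, and the 3 with 50 mM glucose and FGF9 overexpression (HG + OE-FGF9) only for the level of FGF9. The deposited values are TPM (transcript abundance corrected for transcript length), scaled to the same sum in each library. Of the 62703 gene identifiers, 13698 reached 1 TPM in 3 or more of the 6 libraries and were tested with limma on log2(TPM + 1), and all fold changes below are differences on this scale, which understates the change of low genes. A gene was called higher or lower when it differed by at least 1 with an unadjusted p under 0.01, which is the criterion of the study.

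FGF9 is a secreted growth factor of epithelial and mesenchymal tissues. It binds FGF receptors at the cell surface, and the receptors pass the signal on through RAS and the ERK kinases to transcription factors of the FOS, JUN and EGR families, whose genes are switched on within minutes and are therefore called immediate early genes. An siRNA is a short duplex of which 1 strand guides the cutting of a complementary mRNA, while bases 2 to 8 of that strand (the seed) can also pair with the 3′ untranslated region (UTR) of other mRNAs and lower them, as a microRNA does. The siRNA is shown because its target and its seed define the intervention. In the sequences, the seed is in capitals, and in the target the bases that would pair with the guide's seed.
Strand printed in the labels: cUAUGUUGcauuaaauaaatt
Complementary strand: uUUAUUUAaugcaacauag
Target in FGF9: ctatgttgcatTAAATAAa
FGF9 lies on chromosome 13 at 21671383 to 21704498 (GRCh38, plus strand). The 19 target bases are coding sequence, at positions 1016 to 1034 of the FGF9 transcript of 4220 bases, and stand at 246 to 264 of a transcript of 784 bases without an annotated coding sequence. None of the 206694 annotated transcripts outside FGF9 held them without a mismatch on either strand.

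FGF9 itself could not be used to check the knockdown in these libraries. The files give it 0 TPM in every NG, si-FGF9 and HG library, and 3.34, 4.03 and 3.82 in HG + OE-FGF9, so that a fall below the NG level was not detectable in these values. By RT-qPCR the study measured a lower mean of FGF9 mRNA in si-FGF9 than in NG cells, short of its own significance level. Markers of epithelial origin were mixed. KRT8, a keratin of simple epithelia, was at 525 to 595 TPM in NG and 409 to 536 in si-FGF9. VIM, the filament of mesenchymal cells, stood above it, at 2473 to 2956 and 1427 to 1560, and CDH1, the epithelial cadherin, was at most 0.28 in all 6 libraries. PAX8, a transcription factor of kidney epithelium, was at 78.1 to 79.1 TPM in NG and 35.9 to 41.6 in si-FGF9. Markers of the proximal tubule went apart. CUBN, LRP2 and ANPEP stayed under 0.1 TPM in all 6 libraries, and AQP1 was at 0.73 to 1.33 in NG and 0.47 to 1.48 in si-FGF9. GGT1 was at 71.7 to 83.8 TPM in NG and 175 to 195 in si-FGF9, and CDH6 at 161 to 214 and 67.9 to 107. Of 20 markers of other kidney and blood cells, 9 were at 0 in all 6 libraries, and their summed TPM was 129 to 138 in NG and 110 to 134 in si-FGF9, nearly all of it CD68. Libraries of 1 group resembled each other more (Pearson's r of 0.976 to 0.992 across genes) than libraries of different groups (0.804 to 0.868). Between 13795 and 13949 genes reached a TPM of 1 in NG and between 11549 and 12013 in si-FGF9. How deeply the libraries were sequenced is not known from TPM. Replicate 3 of HG stood apart from the other 2 of its group for several genes, and the comparisons with HG are therefore also given without it, a choice made after seeing the data for HG versus NG. With 3 libraries a group an exact permutation test of a single value cannot give a two-sided p below 0.1.

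More genes were lower than higher in si-FGF9. Of the 13698 genes tested, 786 were called higher (5.74%) and 6224 lower (45.4%), and the median difference over all genes was -0.87. In bulk RNA, fewer cells with a transcript and less of it per cell cannot be told apart. All 7010 calls had a Benjamini-Hochberg adjusted p under 0.05 in limma. The split depended on the scaling, with 2960 higher and 2476 lower after scaling by the median of ratios and 2420 and 2459 after quantile normalization. The difference followed the GC content of the transcripts. GC content and length are throughout those of each gene's longest annotated transcript, which need not be the one expressed. When genes were sorted by GC content into 10 bins of equal size, the poorest bin (26.7% to 38.4%) had a median difference of -1.83, with 13 genes higher and 1073 lower. The richest bin (61.3% to 74.5%) had one of 0.24, with 260 higher and 74 lower. Over the 13337 genes with a known GC content the 2 measures had a Spearman's rho of 0.58, which describes genes of the same libraries and not replicates.

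**Figure D1:**
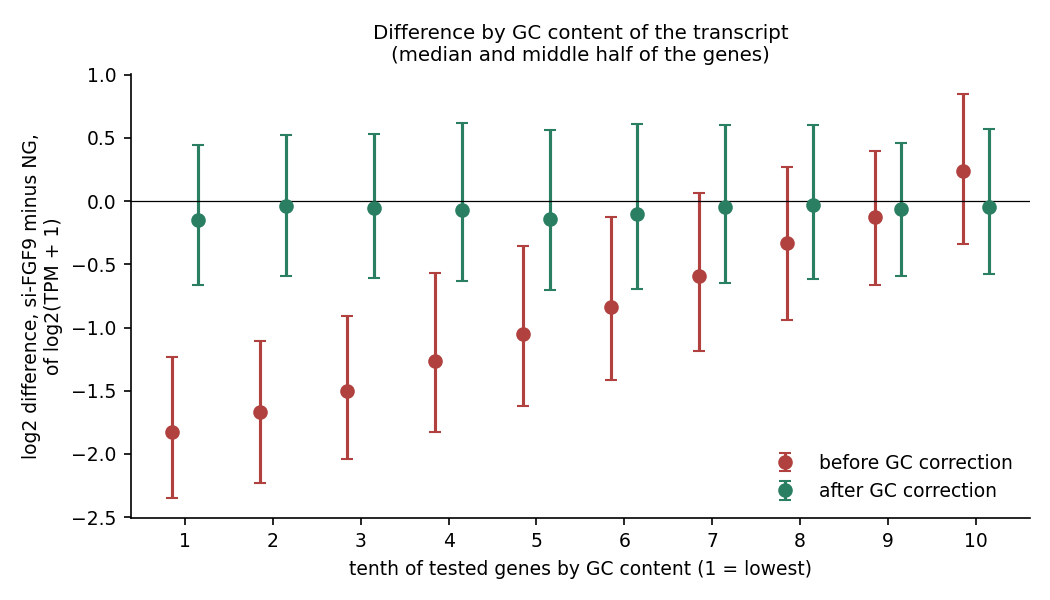
Difference between si-FGF9 and NG in log2(TPM + 1) (y axis) for 10 bins of the 13337 tested genes with a known GC content (x axis, lowest to highest). Points are medians and bars span the interquartile range. Before the correction (red) the median climbs from -1.83 in the first bin to 0.24 in the last, and after it (green) all bins lie between -0.15 and -0.03.

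To find gene classes that stood out from this shift, a smooth curve of GC content was subtracted from each library, so that each gene is compared with genes of like GC content. After this correction 1703 of 13337 genes were called higher (12.8%) and 1604 lower (12%), with a median difference of -0.07 and a rho with GC content of 0.01. Unless stated otherwise, "higher" and "lower" from here on mean this GC-corrected comparison, and the percentages just given are the background against which a count is to be read. Transcript length still went with the difference (rho = -0.31). Among the 827 genes with 500 to 1000 bases 41.7% were higher, against 8.25% of the 10193 genes over 2000 bases. Adding length to the correction left 1460 genes higher (10.9%) and 1293 lower (9.69%). The part that library preparation or RNA quality had in the trends with GC content and length was not tested.

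Genes of the cytosolic ribosome stood highest among the lists examined. After GC correction 59 of the 79 ribosomal protein genes were higher and 0 lower, with a median difference of 1.55, and all 79 lay above 0. Before it 28 were higher and 0 lower. RPL5, which binds 5S rRNA and also restrains MDM2, had 1376, 1273 and 1260 TPM in NG and 4217, 4146 and 2962 in si-FGF9. All 3 si-FGF9 libraries lay above every NG library. The longest annotated transcript of RPL5 has a GC content of 37.4%, which puts the gene in the poorest bin with its median of -1.83. If a transcript richer in GC is the one expressed, the corrected difference is too large, which was not tested. Its GC-corrected difference was 3.22 ± 0.08 (SE, n = 3, limma adjusted p = 1.07e-06). RPLP1, a protein of the ribosomal stalk, rose from 602, 679 and 707 TPM to 2601, 2540 and 2434, by 2.86 ± 0.10 after correction. RPL36A and RPL9 of the large subunit were higher by 2.99 and 2.72. The most abundant member, RPL41, did not pass, at 10559 to 11115 TPM in NG and 9788 to 11309 in si-FGF9. Both subunits took part, with 34 of 47 genes of the large subunit and 25 of 32 of the small subunit higher.

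The ribosomal protein genes are short and abundant, and both properties moved with the result. Among the 35 of them whose longest annotated transcript has over 2000 bases, 27 were higher, a median of 1.76. That transcript need not be the one expressed, so the part that the length of the expressed mRNA had was not tested. With length added to the correction 52 of 79 were higher, and with the mean level added in its place 15, at a median of 0.54. Over all 13337 genes the correction with the mean level called 1519 higher and 1407 lower, the background for every count given with it. As a share of all TPM, the class took up 20.2%, 21.5% and 21.6% of the NG libraries and 36.7%, 36.3% and 33.7% of the si-FGF9 libraries, which do not overlap. The HG libraries lay between them, at 27.7%, 27.8% and 24.9%. Ribosomal protein pseudogenes, intronless copies whose reads cannot be told from those of their parents with certainty, took up 1.84% ± 0.10 (SD, n = 3) in NG and 3.22% ± 0.38 in si-FGF9. Since TPM sum to the same total in every library, a class with a larger share lowers the TPM of all others. With mitochondrial and ribosomal protein genes left out and TPM rescaled, 1021 genes were higher and 6176 lower before GC correction. With them the counts were 786 and 6224.

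**Figure D2:**
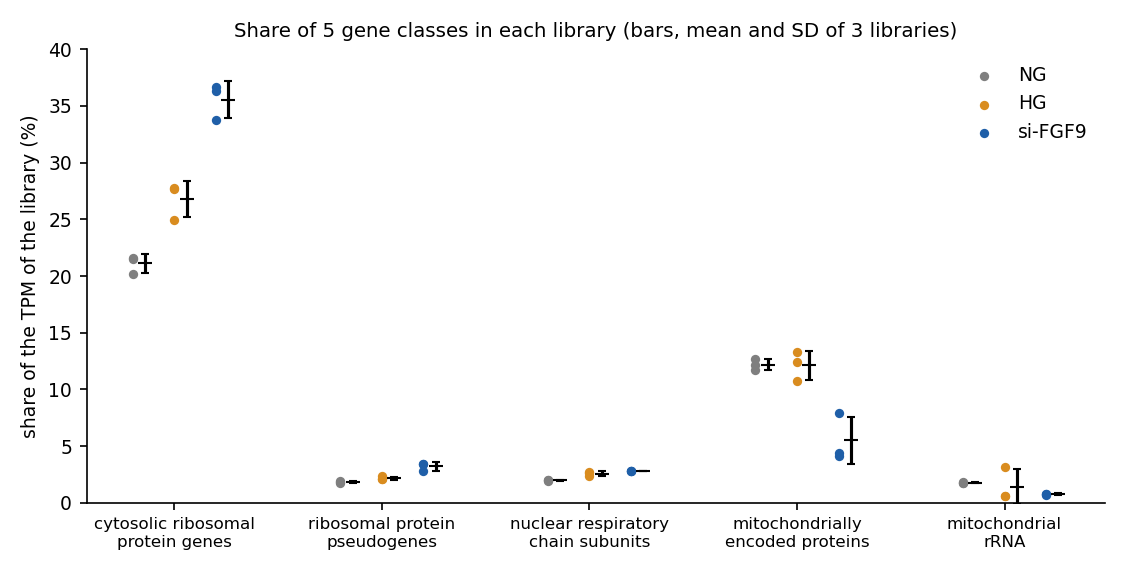
Share of each library's TPM (y axis, percent) taken by 5 gene classes in NG, HG and si-FGF9 (points, 1 per library; black bars, mean and SD of 3 libraries). Ribosomal protein genes rise from 21.1% on average in NG to 35.6% in si-FGF9, while mitochondrially encoded proteins fall from 12.2% to 5.49%.

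Nuclear genes for the respiratory chain moved the same way. Of 79 subunit genes 49 were higher and 1 lower, at a median of 1.31. With length added to the correction 37 and 1 were called, and with the mean level added in its place 28 and 0, at a median of 0.68. By complex, 21 of 38 genes of complex I (NADH dehydrogenase) were higher, 1 of 4 of complex II, 4 of 9 of complex III, all 10 of complex IV (cytochrome c oxidase) and 13 of 18 of ATP synthase. ATP5F1E, the epsilon subunit of ATP synthase, had 40.9, 61.9 and 63.0 TPM in NG and 197, 202 and 111 in si-FGF9, a difference of 3.26 ± 0.23 (limma adjusted p = 2.22e-05). UQCR11 of complex III had 75.7, 88.1 and 85.8 TPM in NG and 397, 388 and 345 in si-FGF9, and was higher by 2.64 ± 0.10. ATP5MG and NDUFA4 were higher by 2.81 and 2.65. Much of the class did not rise in TPM itself, as 20 genes were higher and 8 lower before the correction. ATP5MF, the most abundant uncalled member with ATP5MK, had 1008 to 1248 TPM in NG and 1070 to 1293 in si-FGF9. The nuclear subunits together took 1.93% to 2.02% of TPM in NG and 2.76% to 2.84% in si-FGF9.

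The mitochondrial genome encodes the other subunits of the same complexes, and its transcripts did not follow the nuclear ones. The 13 protein genes took 12.1%, 11.7% and 12.7% of TPM in NG and 4.14%, 4.41% and 7.93% in si-FGF9, while the HG libraries stayed at 10.8%, 13.3% and 12.4%. Before correction 9 of 13 were lower and 0 higher. After it 3 were lower and 1 higher, because these genes have a GC content near 44.3%, where nuclear genes had fallen as well. The counts moved with the processing, to 0 higher and 5 lower with length corrected (median -0.86), 0 and 8 with the mean level corrected (-1.23), and 0 and 5 without si-FGF9 replicate 3 (-0.60). The largest differences were in the 2 short genes that overlap a longer neighbour on the same RNA. MT-ATP8, with 207 bases, had 19075, 22085 and 24740 TPM in NG and 556, 852 and 1473 in si-FGF9. MT-ATP6, which overlaps it and is read from the same transcript, had 8692, 6308 and 6872 TPM in NG and 5535, 5826 and 9277 in si-FGF9. The same held for MT-ND4L, with 297 bases, at 9343 to 15400 TPM in NG and 438 to 658 in si-FGF9, beside MT-ND4 at 8137 to 9738 and 3876 to 5158. Genes read from the same RNA thus had differences of -4.62 (MT-ATP8) and -0.11 (MT-ATP6) before correction. MT-ND5, a core subunit of complex I, was lower by 1.39 after correction. MT-RNR2, the large mitochondrial rRNA, had 15041 to 15845 TPM in NG and 4333 to 5640 in si-FGF9, and MT-RNR1, the small one, 2059 to 2204 and 2366 to 2521. Replicate 3 of si-FGF9 was the highest of its group for each of the 13 protein genes, and replicate 3 of HG stood apart for MT-RNR2, at 28092 TPM against 4173 and 3996.

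**Figure D3:**
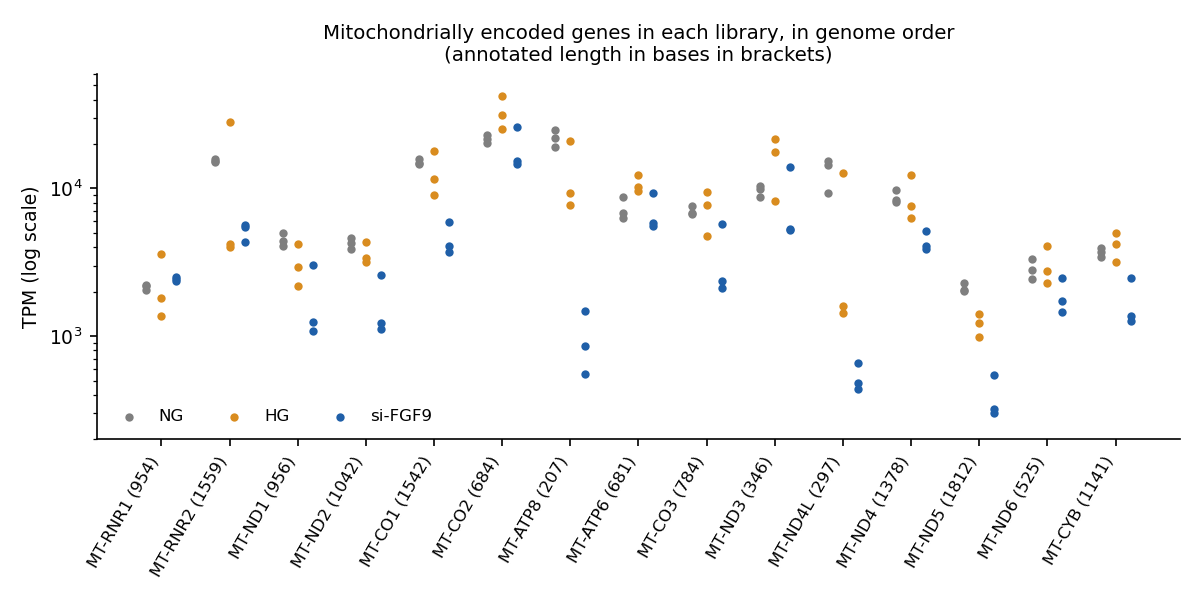
TPM (y axis, log scale) of the 13 protein genes and 2 rRNA genes of the mitochondrial genome in each library of NG (grey), HG (orange) and si-FGF9 (blue), in genome order with the annotated length in brackets. MT-ATP8 and MT-ND4L lie at 438 to 1473 TPM in si-FGF9 and at 9343 to 24740 in NG, a gap that their neighbours MT-ATP6 and MT-ND4 do not show.

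Other genes of protein synthesis and turnover were higher in smaller shares relative to genes of like GC content. Before the correction 12 mitochondrial ribosomal protein genes were higher and 18 lower, 3 and 10 proteasome genes, 7 and 23 translation factors, and 3 and 4 host genes of small nucleolar RNAs. After it, mitochondrial ribosomal protein genes were higher in 30 of 78 cases and lower in 2, at a median of 0.72. MRPL52 led them, with 67.2, 79.9 and 80.3 TPM in NG and 270, 297 and 308 in si-FGF9, a difference of 3.03 ± 0.13. Of 46 proteasome genes 15 were higher and 0 lower, among them 9 of the 17 subunits of the catalytic core and 3 of the 20 ATPase and lid subunits. PSMA6, a core subunit, shows what the correction does. Its TPM of 319 to 323 in NG and 331 to 337 in si-FGF9 nearly coincide, and its corrected difference is 1.76 because genes of like GC content (38.1%) were lower. Of 59 translation factors 15 were higher and 4 lower. EIF3C, a subunit of the initiation factor that holds the small ribosomal subunit, had 150, 148 and 156 TPM in NG and 657, 592 and 694 in si-FGF9. EIF3CL, a near-identical copy, was higher too, and reads may have been split between both. EEF1A1, the elongation factor that delivers aminoacyl-tRNA, had 10946 to 11280 TPM in NG and 5229 to 6428 in si-FGF9, a corrected difference of 0.06 that was not called. With the mean level added to the correction, 24 mitochondrial ribosomal protein genes, 7 proteasome genes and 9 translation factors were higher, and 1, 1 and 8 lower. Over all 13337 genes that correction called 1519 higher and 1407 lower, and proteasome genes and translation factors stood out less from this background. Host genes of small nucleolar RNAs, which guide the modification of rRNA and often carry a 5′ terminal oligopyrimidine tract, were higher in 10 of 26 cases and lower in 2. Among the most abundant noncoding genes, ZFAS1 had 759, 764 and 756 TPM in NG and 2259, 2327 and 1439 in si-FGF9, and GAS5 was higher by 1.76 after correction.

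The immediate early genes were the lowest of the lists. After GC correction 13 of 22 were lower and 1 higher, with a median of -1.39, and before it 16 and 1. EGR1, a zinc finger transcription factor induced through ERK and serum response factor, had 130, 134 and 133 TPM in NG and 0.13, 0.19 and 0.66 in si-FGF9. The groups are far apart, and the corrected difference of -6.30 ± 0.14 (limma adjusted p = 5.47e-07) was the largest fall of any protein-coding gene named here. FOS had 276, 252 and 251 TPM in NG and 4.58, 6.35 and 2.92 in si-FGF9, a difference of -5.04 ± 0.21. FOSB, its close relative, had 79.0, 52.9 and 55.8 TPM in NG and at most 0.67 in si-FGF9. ATF3, a stress-induced bZIP factor, was lower by 2.37. All 4 tested KLF genes of the list were lower (KLF2, KLF4, KLF6 and KLF10, named after their values were seen). The families were not uniform. FOSL1, which joins the same AP-1 dimers, had 126 to 139 TPM in NG and 148 to 218 in si-FGF9, without a call. JUN had 197, 210 and 219 TPM in NG and 92.5, 94.3 and 31.9 in si-FGF9. The groups do not overlap, but si-FGF9 replicate 3 lay far below the others of its group, and the corrected difference of -1.38 ± 0.41 was not called. JUN was called lower in 8 of 18 recalculations, among them those without si-FGF9 replicate 1 (-1.62) or 2 (-1.64). It was not called without replicate 3 (-0.80). In the HG libraries EGR1 was at 0.74, 0.85 and 0.25 TPM and FOS at 1.10, 0.53 and 6.89, so that the same genes were near 0 without the siRNA. The list had a GC-corrected median of -1.36 in HG versus NG, a comparison that shares the NG libraries, and of -1.74 without HG replicate 3. In si-FGF9 versus HG 0 of its 22 genes were called, and 3 were higher without HG replicate 3.

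Promoters of EGR1 and SRF are known for CArG boxes, the binding sequence of serum response factor. They are shown for EGR1 since it led the list. In the RefSeq promoter (GRCh38.p14, plus strand), the box is in capitals in these stretches. The boxes begin 105 and 83 bases before the start of the gene.
EGR1 chr5:138465364-138465393: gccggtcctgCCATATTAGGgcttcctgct
EGR1 chr5:138465386-138465415: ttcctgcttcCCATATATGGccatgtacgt
On either strand, a CArG box stood in 351 of 27305 promoters of the same length (1.29%), in 105 of 10120 promoters of tested genes (1.04%) and in 2 of the 22 immediate early genes, EGR1 and SRF. A box outside the stretch searched was not counted, so the other immediate early genes cannot be said to lack one. SRF itself had 8.13, 10.4 and 10.3 TPM in NG and 4.67, 4.45 and 4.99 in si-FGF9, a corrected difference of -0.92 that was not called.

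FGF receptors and the RAS-ERK core, on which an FGF9 signal would depend, moved little as a group. Of 26 tested members 2 were higher and 4 lower, close to the background, with a median of -0.44. The 2 kinases that phosphorylate ERK went apart. MAP2K2 had 90.4, 110 and 110 TPM in NG and 355, 338 and 396 in si-FGF9, higher by 1.77 ± 0.07, while MAP2K1 had 58.8, 54.5 and 56.1 and 12.2, 17.1 and 15.1, lower by 1.19 ± 0.12. ARAF, a kinase one step above, was higher by 1.49, and PTPN11, the phosphatase that links receptors to RAS, lower by 1.16. With length corrected, 2 of the 26 were higher and 0 lower, with MAP2K1 at -0.94 and PTPN11 at -0.98. Among the feedback and target genes of ERK, 6 of 18 were lower and 0 higher. DUSP6, the phosphatase that switches ERK off, had 27.8, 23.6 and 20.8 TPM in NG and 1.74, 2.06 and 3.77 in si-FGF9, lower by 1.95 ± 0.23. SPRY2, an inhibitor of receptor signalling, was lower by 1.80 and the receptor EPHA2 by 2.06. IER3, the most abundant of the uncalled members, had 397 to 422 TPM in NG and 260 to 307 in si-FGF9. The ligands HBEGF and EREG of the EGF receptor were lower by 1.28 and 1.25, 2 of the 3 genes called lower among 8 of that family, with 0 higher.

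YAP and TEAD are a transcription pair held in check by the Hippo kinases. Their list joins targets with YAP1, WWTR1, the TEAD genes and the Hippo kinase LATS1. Of its 15 genes 7 were lower and 0 higher, at a median of -0.88. CCN2, a secreted matricellular protein, had 173, 145 and 146 TPM in NG and 8.25, 6.85 and 9.53 in si-FGF9, with HG between them at 57.6, 41.4 and 28.2. No value of one group reached another, and the corrected difference to NG was -3.47 ± 0.13 (limma adjusted p = 3.73e-06). ANKRD1, a nuclear ankyrin repeat protein, had 191, 167 and 158 TPM in NG and 7.89, 9.98 and 8.16 in si-FGF9, and was lower by 2.88 ± 0.09. AMOTL2 and LATS2, which are induced by YAP and restrain it, were lower by 2.79 and 1.51. AXL, a receptor kinase, was not called, at 184 to 204 TPM in NG and 102 to 109 in si-FGF9.

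Inflammatory genes were lower more often than higher. Of 16 tested genes 8 were lower and 1 higher, at a median of -0.91. IL6 had 167, 142 and 143 TPM in NG and 8.90, 10.3 and 13.5 in si-FGF9, a difference of -2.54 ± 0.18. CXCL8, the neutrophil attractant and the most abundant of them, had 704, 671 and 647 TPM in NG and 63.2, 79.2 and 53.1 in si-FGF9, a difference of -1.77 ± 0.09. CXCL2 and CXCL3 of the same chemokine family were lower by 2.29 and 1.84. NFKBIA, the inhibitor of NF-kB, was at 86.2 to 91.6 TPM in NG and 30.0 to 38.2 in si-FGF9 and was called lower before the correction, not after it (-0.82), and again with length corrected (-1.16). SOCS3, the feedback inhibitor of IL6 signalling, had 44.2, 45.9 and 48.1 TPM in NG and 2.67, 3.77 and 1.88 in si-FGF9, and was lower by 3.63 ± 0.21. Its transcript is rich in GC and lies in a bin with a median of only -0.12 before the correction. Of 38 interferon response genes 7 were lower and 2 higher, among them IRF1 (-1.83), OAS3 (-1.44) and IFIT3 (-1.42) on the lower side and ISG20 (1.64) on the higher.

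**Figure D4:**
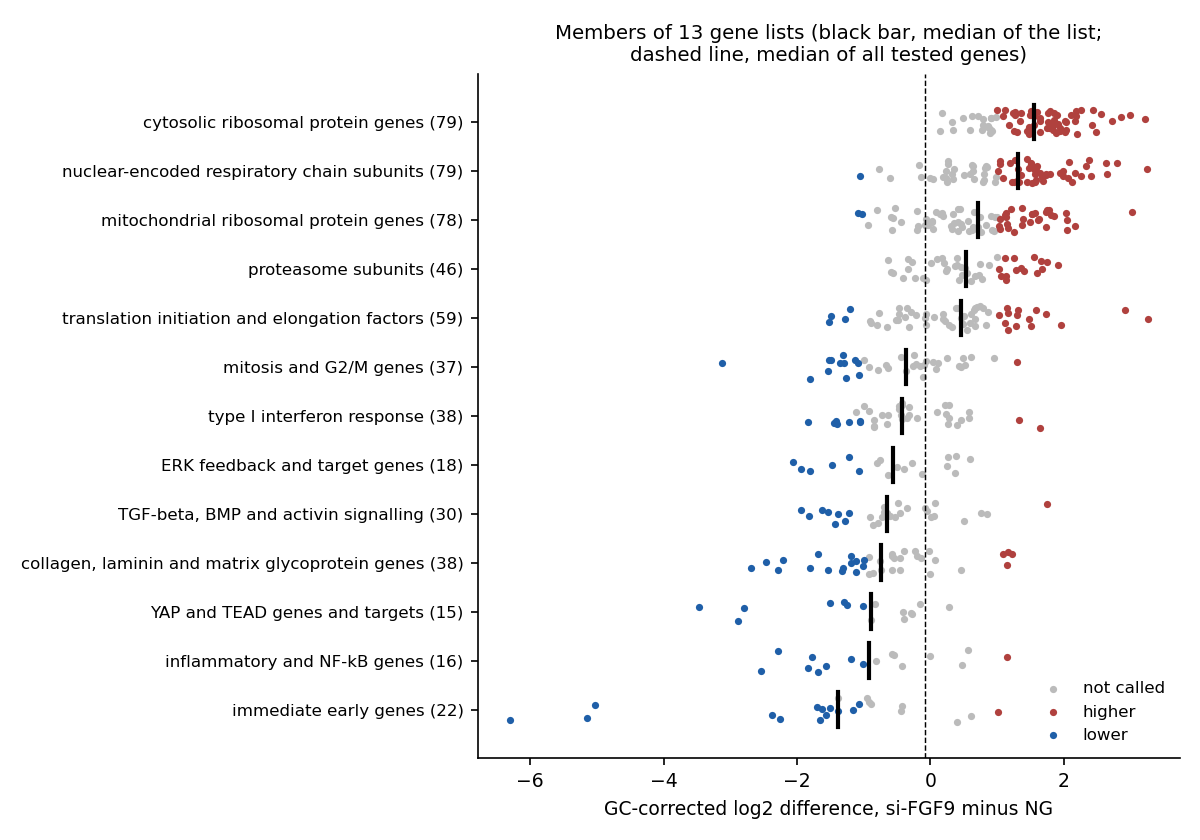
GC-corrected difference between si-FGF9 and NG (x axis, log2) of each tested member of 13 gene lists, with the number of members in brackets. Red points were called higher, blue lower and grey neither, black bars are list medians and the dashed line is the median of all 13337 genes (-0.07). Medians run from 1.55 in ribosomal protein genes to -1.39 in immediate early genes.

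**Figure D5:**
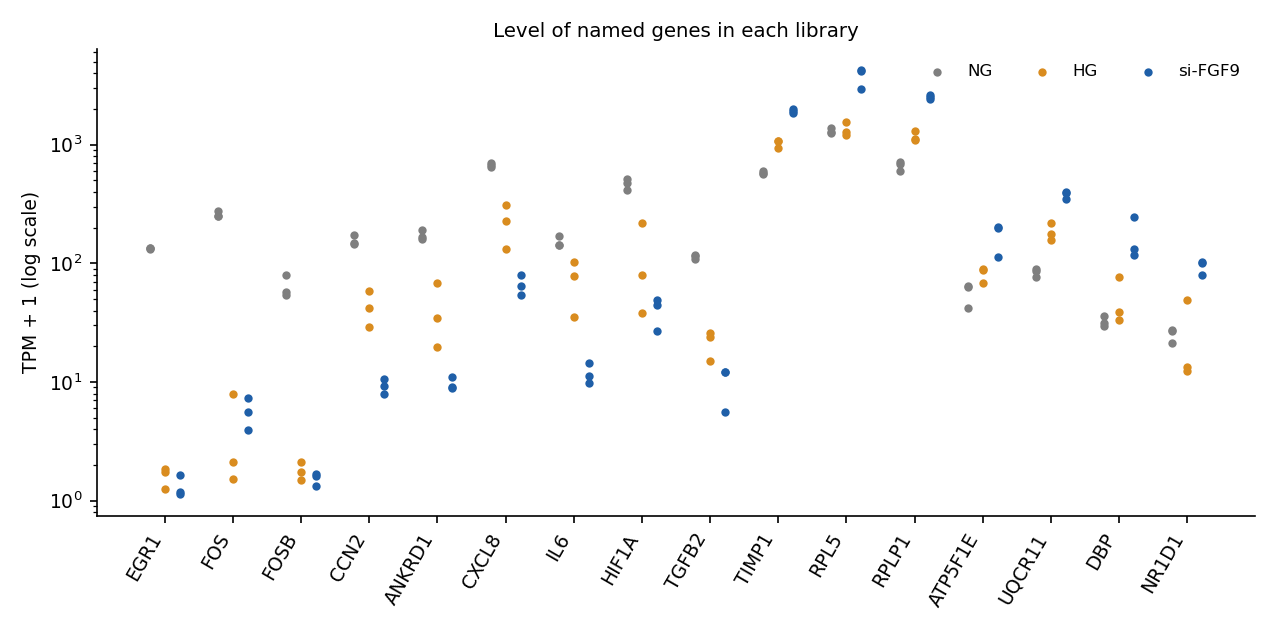
TPM + 1 (y axis, log scale) of 16 genes in each library of NG (grey), HG (orange) and si-FGF9 (blue). EGR1, FOS and FOSB are near the floor in both HG and si-FGF9, CCN2 and ANKRD1 step down from NG through HG to si-FGF9, and RPL5, RPLP1 and DBP are highest in si-FGF9.

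Genes of TGF-beta signalling and of the extracellular matrix, on which the study centred, were lower or not called, with few exceptions. In TGF-beta, BMP and activin signalling 8 of 30 were lower and 1 higher. TGFB2, a ligand, had 118, 115 and 108 TPM in NG and 4.57 to 11.2 in si-FGF9, with a difference of -3.61 before and -1.94 ± 0.21 after the correction. TGFB1, the major ligand of fibrosis, had 69.5, 81.3 and 84.7 TPM in NG and 153, 148 and 163 in si-FGF9. These do not overlap, but the differences of 0.97 and 0.76 stayed under 1. SMAD7, the inhibitory SMAD, was lower by 1.62. Of 38 genes for collagens, laminins and matrix glycoproteins 15 were lower and 4 higher, and 9 and 4 with length corrected. These transcripts are long, with a median of 6520 bases. COL4A1, a chain of basement membrane collagen, had 282, 223 and 224 TPM in NG and 34.9, 38.4 and 27.0 in si-FGF9, lower by 2.47 ± 0.18. NID1 and NID2, which join laminin to that collagen, were lower by 2.21 and 2.28, and the proteoglycan VCAN by 2.69. FN1, fibronectin, fell from 4664 to 6149 TPM in NG to 1266 to 1751 before correction (-1.80), and its corrected difference of -0.39 was not called.

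The other genes that the study followed in these cells behaved in the same 2 ways. By RT-qPCR the study reports LOX, HIF1A, THBS1, TGFB2 and ITGB1 as raised in si-FGF9, whereas the TPM of each was lower here. It also reports more TGFB1, LOX and smooth muscle actin protein in si-FGF9, and less E-cadherin, the protein that CDH1 encodes. RNA values do not measure protein. HIF1A, the oxygen-regulated transcription factor, had 517, 472 and 416 TPM in NG and 43.4, 47.9 and 25.6 in si-FGF9, a difference of -3.59 before and -1.89 ± 0.13 after the correction. ITGB1, the beta subunit shared by many matrix receptors, went from 656 to 801 TPM to 53.9 to 116 and was lower by 1.43 after it, with the limit that reads can be shared with its pseudogene. LOX, which crosslinks collagen, had 182, 169 and 157 TPM in NG and 39.8, 47.3 and 38.6 in si-FGF9. It was lower by 1.99 before the correction and not called after it (-0.36 ± 0.08), so that LOX differed from NG about as much as other transcripts with its GC content of 39.6%. THBS1, an activator of latent TGF-beta, was lower by 1.01. Of 18 recalculations 7 lost this call, among them the one with length corrected (-0.74). ACTA2, smooth muscle actin, was at 3.45 to 3.60 TPM in NG and 1.56 to 2.86 in si-FGF9 and was not called, and CDH1 stayed under 0.3 TPM in all 6 libraries and was not tested. Of the matrix-degrading enzymes and their inhibitors 6 of 18 were lower and 2 higher. TIMP1, an inhibitor, rose from 567, 576 and 594 TPM to 1905, 1836 and 1984, by 1.91 ± 0.07, while MMP14 and the sheddase ADAM17 were lower by 1.51 and 1.60. S100A4, a calcium-binding protein of motile cells, rose from 5.51 to 6.90 TPM to 25.2 to 38.1, and CDH2, N-cadherin, was lower by 1.19, although not with length corrected (-0.93). Keratins hardly moved, with 1 of 11 higher and 0 lower.

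Among structural and cell cycle genes, 8 of 24 junction genes were lower and 1 higher, including CTNNB1 (beta-catenin, -1.49), DSP (desmoplakin, -1.35) and TJP1 (ZO-1, -1.35). Of 37 genes of mitosis 12 were lower and 1 higher. CENPF, a kinetochore protein, had 94.6, 70.2 and 66.1 TPM in NG and 2.16, 2.46 and 1.49 in si-FGF9, lower by 3.13 ± 0.11, and KIF20A, a kinesin of cytokinesis, was lower by 1.80. Genes of DNA replication did not share this, with 3 of 38 higher and 2 lower. Chromatin regulators were lower in 10 of 46 cases and higher in 0, but with length corrected only in 2, KMT2C and KMT2D, the longest transcripts of the list at 16862 and 19419 bases. Splicing genes showed 5 higher and 13 lower of 71, a balance that turned with a pseudocount of 0.1 (11 and 4).

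The largest GC-corrected increases among protein-coding genes were in genes that NG cells hardly expressed or that moved against their GC class. CAPN12, a calpain protease, had at most 0.35 TPM in NG and 111, 112 and 129 in si-FGF9, and reached 18.1 in 1 HG library. LDLRAD2 went from 0.64 to 1.18 TPM to 42.9 to 48.9. SEC62, part of the channel that carries proteins into the endoplasmic reticulum, rose from 49.2, 39.4 and 33.8 TPM to 135, 112 and 111, despite a GC content of 36.7%. SPINK1, a trypsin inhibitor, rose from 1.25 to 3.46 TPM to 11.3 to 20.1. Among the largest decreases were HAVCR1 (KIM-1, a marker of tubular injury), with 76.5, 88.4 and 81.2 TPM in NG and 3.79, 5.05 and 2.75 in si-FGF9, and CYP24A1, which breaks down vitamin D, at 50.6 to 58.5 and 0.85 to 2.35. Their corrected differences were -3.21 ± 0.15 and -3.52 ± 0.20. The list of tubular injury and repair markers did not move with HAVCR1, with 3 of 16 higher and 2 lower, at a median of -0.02. Among the 2668 genes richest in GC, of which 253 were lower before correction, L1CAM, an adhesion molecule, fell from 177, 192 and 190 TPM to 28.9, 33.0 and 33.2, and ITPR3, a calcium channel of the endoplasmic reticulum, was lower by 2.13 after the correction.

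Noncoding classes were higher more often than coding genes relative to genes of like GC content, and both the correction and length bore on this. Before the GC correction 127 of 1231 long noncoding RNAs were higher and 283 lower, as were 42 and 93 of 318 pseudogenes. After it 372 long noncoding RNAs were higher and 59 lower, at a median of 0.62 against -0.14 in protein-coding genes. With length corrected the counts were 216 and 118, and the medians 0.15 and -0.06. Antisense genes with an AS name were higher in 84 of 283 cases and lower in 10 after the GC correction, against 26 and 55 before it. IER3-AS1 had at most 3.57 TPM in NG and 257, 212 and 164 in si-FGF9, and TUBA1B-AS1 117 to 208 and 1019 to 1443. Since the counting is not stated to use strand, reads of these genes and of the genes opposite to them cannot be told apart. Of the pseudogenes 101 were higher and 39 lower after the GC correction, and 47 and 70 with length corrected, a turn in direction. In a choice made after the values were seen, 24 genes had a mean TPM under 1 in NG and of at least 10 in si-FGF9, and 85 the reverse. Of the 24, 12 were long noncoding and 5 protein-coding, and 13 had at most 500 bases, against 1231, 11740 and 345 of all 13346 annotated genes tested. RPL3P4, a copy of RPL3, led them with 852 to 1217 TPM in si-FGF9 and at most 0.68 in NG, a value that may hold reads of its parent. The 85 had a median GC content of 40.5%, against 48.0% in all annotated genes tested. Neither set could have passed the expression filter without the group in which it is high. Their make-up therefore only describes the sets.

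The comparison with HG uses the same si-FGF9 libraries. Before correction, Spearman's rho across the 13337 genes between GC content and the difference was 0.66 for HG minus NG and 0.27 for si-FGF9 minus HG. Without a correction 177 genes were higher in si-FGF9 than in HG and 1149 lower. Its counts depended on HG replicate 3. After GC correction 443 genes were higher in si-FGF9 than in HG (3.32%) and 294 lower (2.20%), and without HG replicate 3 the counts were 654 and 570. Ribosomal protein genes were higher in 16 of 79 cases and lower in 0, at a median of 0.77, and respiratory chain genes in 6 of 79, at 0.44. Without HG replicate 3 these were 12 and 6, at 0.65 and 0.33. Inflammatory genes were lower in 5 of 16 cases, the YAP and TEAD list in 3 of 15, and interferon genes in 6 of 38, and without that library in 5, 3 and 7. IL6 had 34.5 to 101 TPM in HG, all above si-FGF9, and lower in si-FGF9 by 2.05 after the correction (2.60 without HG replicate 3). CCN2 was lower by 1.86 (2.11), ANKRD1 by 1.43 (1.10) and SOCS3 by 1.53 (1.53). TGF-beta genes (30) and immediate early genes (22) gave 0 calls with all libraries, and without HG replicate 3 gave 1 lower and 3 higher. HIF1A, at 78.3, 37.2 and 216 TPM in HG, differed by -0.64 without a call (-0.21 without HG replicate 3), and its HG libraries varied more than those of the other groups.

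Genes were also grouped by matches to the siRNA seeds in their 3′ UTR. Searched were the letters TAAATAA for the complementary strand, the guide against FGF9, and CAACATA for the printed strand, on the sense strand of the longest annotated transcript. For TAAATAA, 7901 genes had no match, 2359 had 1, 826 had 2 and 573 had 3 or more, and the median difference before correction was -0.71, -1.36, -1.56 and -1.58. Genes with matches are poorer in GC (median 42.6% against 51.8%), and after the correction the medians were -0.10, -0.25, -0.24 and -0.20. Genes with a match thus lay lower by 0.14 (SD 0.03 over the 3 si-FGF9 libraries), with no further fall beyond 1 match. Their 3′ UTRs are longer (median 2489 against 912 bases), and with length corrected the medians were -0.04 without and -0.10 with a match, and 0.01 with 3 or more. The same genes had GC-corrected medians of -0.01, -0.12, -0.19 and -0.14 in HG versus NG, where no siRNA was used and the NG libraries are shared, and of -0.07, -0.10, -0.04 and -0.01 in si-FGF9 versus HG. Without HG replicate 3 they were 0.01, -0.15, -0.22 and -0.16, and -0.07, -0.08, -0.02 and 0.00. For the printed strand the difference between genes with and without a match was 0.02.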

How the data were processed

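The data are TPM values per gene from RNA sequencing of HK2 cells, 1 table per library, as deposited by the authors. The submitters' processing notes name Bowtie 0.12.2 and the genome build mm8, a mouse build that does not go with the human gene identifiers of the tables, so the build behind the values is uncertain, and the counting method, strand use and depth are not given in the sources used here. Nothing states that replicates came from separate cultures, so p-values measure the spread between libraries, which may be technical. Groups were taken from the labels.

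From the TPM, log2(TPM + 1) was tested with limma 3.58.1 (R 4.3.3, trended variance) on 3 si-FGF9 against 3 NG libraries, keeping genes with at least 1 TPM in at least 3 libraries. For the GC correction a natural spline with 5 degrees of freedom of the GC content of each gene's longest GENCODE 29 transcript (GRCh38) was subtracted per library. It also removes overall shifts, so corrected differences are relative to genes of like GC content. 13337 genes had a GC content. The fit and correction were tested on simulated data. Named genes were those the study follows, in each list up to 4 called members with the largest corrected difference, a mean of at least 10 TPM in a group and no overlap, and up to 2 uncalled ones with the highest level, the 10 protein-coding genes with the largest difference each way, the 5 going most against the GC trend each way, and the 3 most abundant of each noncoding class. Other names were chosen after their values were seen, and the gene lists and tests were chosen with earlier results of these data known. Promoters come from RefSeq (GRCh38.p14). Alternatives covered the pseudocount, filter, scaling, correction, replicate block and each library left out.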

Additional observations from a re-analysis of the deposited data

How the results depend on the processing

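Leaving aside the omission of single libraries, counts of calls over all genes and seed differences kept near their value in 93 recalculations and moved further in 11, which follow. The counts within single gene lists, many of them small, moved by over 1.5 times in 133 recalculations and not in 847, and with single libraries left out in 60 and not in 444. Before GC correction, median-of-ratios scaling gave 2960 higher and 2476 lower, and quantile normalization 2420 and 2459. After it, dropping the filter on low values gave 4972 calls, 2733 of them lower. Against HG, a pseudocount of 0.1 gave 1147 calls with 498 lower, and no filter 461 lower. With 6-base seeds, genes with a match differed by -0.24 for the complementary and -0.12 for the printed strand. The cause was not tested. EEF1A1 turned from 0.06 to -1.11 with the mean level in the correction. Leaving out 1 library at a time gave 5712 to 7004 calls before correction (684 to 812 higher, 4982 to 6277 lower), 3048 to 3288 after it (1541 to 1696 higher, 1490 to 1604 lower) and 542 to 1224 against HG (331 to 654 higher, 211 to 570 lower), the highest without HG replicate 3. Deviations of libraries with the same number had correlations of 0.10, -0.05 and 0.21, against -0.207 to 0.166 for different numbers. After GC correction these were 0.066, 0.008 and 0.099, against -0.086 to 0.039. So few low values do not show that the numbers pair the libraries, and cannot exclude it. A replicate block gave 7071 calls before correction, 3360 after it and 684 against HG. Depth is unknown, so that the precision of low values cannot be given.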

Other observations

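Circadian clock genes held 4 higher and 1 lower member of 14, at a median of 0.09. DBP, an output transcription factor of the clock, had 28.6 to 35 TPM in NG and 117, 130 and 244 in si-FGF9, and was higher by 2.47 ± 0.23 after GC correction (limma adjusted p = 7.63e-05). NR1D1, a repressor within the clock, had 20.2, 26.1 and 26.3 TPM in NG and 103, 101 and 79.4 in si-FGF9. All si-FGF9 libraries lay above all NG libraries for both. CIART, another repressor, was higher by 1.57, while NFIL3, which opposes DBP at the same DNA sites, was lower by 1.06. The call of NFIL3 was lost in 5 of 18 recalculations. PER1 was not called (0.35). The time of harvest is not given in the labels.

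Several metabolic and stress lists held few calls in both directions. Glycolysis genes had 2 higher and 2 lower of 20, NRF2 targets 6 and 6 of 30, the unfolded protein response 4 and 2 of 25 and the integrated stress response 2 and 2 of 25. Zinc finger genes with a ZNF name were lower in 260 of 400 cases before the GC correction and in 36 of 397 after it, with 29 higher.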
